A study of Mus musculus with 2 samples.

Results

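Splice junctions whose donor and acceptor are both missing from the reference annotation were examined in RNA sequencing of adult mouse cerebellum. A splice junction is the pair of genome positions that a read joins when an intron has been removed. Junctions were taken from the authors' junction table on the mm9 assembly. They were kept when the table marked them as unannotated, both replicates had reads over them, the replicates together had at least 10 reads, they lay on an autosome, and neither end matched an end of an Ensembl 65 intron on the same strand. The table lists 1125475 junctions, of which 173994 on autosomes passed the same read minimum, and 10831 of those (6.22%) had both ends unannotated. These are called fully unannotated junctions here. They were chosen by their reads in both replicates, so their read numbers are given as a description.

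The study measured 1 group, cerebellum of C57BL/6J mice aged 8 weeks, in 2 libraries, so it holds no contrast between conditions. C57BL/6J is a common inbred laboratory strain. Per the labels each library pools both sexes, taken from littermates. Both cite the same donor record, so separate animals are not documented, and the spread between the libraries may be technical. The RNA was polyadenylated, depleted of ribosomal RNA and longer than 200 nucleotides, and was read as stranded pairs of 101 bases with spike-in RNAs added.

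Introns are removed by the spliceosome, which recognises a donor site at the start of the intron and an acceptor site at its end, most often with the letters GT and AG. Annotations record the introns found in earlier transcript collections, and neurons are known for very long introns, for noncoding host transcripts and for microexons, which are exons of only a few codons.

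The junction reads over annotated introns totalled 36084858 in replicate 1 and 35305112 in replicate 2, and 79771873 and 80281011 fragments were assigned to genes. Cerebellar markers were high in both libraries, with Gabra6 of granule neurons at 336 and 269 TPM and Pcp2 of Purkinje neurons at 1585 and 1349 TPM. TPM is a relative abundance corrected for transcript length. The forebrain markers Tbr1 and Drd1 were at or below 0.38 TPM, and Neurod6 was at 3.49 and 3.53 TPM. The choroid plexus marker Ttr differed between the libraries, at 2086 and 763 TPM, and its part in the results was not tested. In bulk tissue, fewer cells of a type and less RNA per cell cannot be told apart. How the junction table's replicate numbers relate to the 2 libraries is not stated.

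Many of the fully unannotated junctions with the most reads sat 1 to 4 bases from an annotated intron of exactly the same length. Because no mm9 genome was used, the letters next to such introns were read from the GENCODE M21 transcript of the same identifier (mm10). The sequences below are shown because they hold the bases by which table and annotation differ. Each gives the last 15 bases of the upstream exon and the first 15 of the downstream exon, and capitals mark the exon bases that the table counts as intron.
Pkm: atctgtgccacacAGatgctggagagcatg
Klc1: ggccctggtgtacAGggatcagaacaagta
Glul: accggaaacctgcAGagaccaacttgaggc
Slc25a3: tgttcgccatcttagGaggatgttctcgtc
Pkm encodes a pyruvate kinase of glycolysis, Klc1 a light chain of the motor kinesin, Glul glutamine synthetase and Slc25a3 the mitochondrial phosphate carrier. The first 3 lie on the plus strand and their junctions start and end 2 bases before the annotated intron. Slc25a3 lies on the minus strand and its junction is 1 base towards lower coordinates, which is the downstream direction of that gene.

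Others were shorter than an annotated intron by the length of a microexon of the same gene in GENCODE M21. These sequences are shown because the short exon has the length by which junction and annotated intron differ. Capitals mark the whole short exon, and lower case the ends of its neighbouring exons.
Psap: atgcacatgCAGGATCAGcaacccaag
Dnm1: gggaaccagGATGAGATTCTGgtcattcga
Snap91: tggaaacaaCCAAGCatctggtgc
Sh3glb2: aaagccacgTGTGAGGGCGATacggtgcct
Immt: gggatgaGTATTTCTGACCTAGctggcaa
Unc13a: agcgacctgGCTATGtcattggtg
Cadps2: catgctgagGGAAGAGAGgcatttgcc

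Another group joined exons of transcripts that GENCODE M21 lists and Ensembl 65 lacked. The following exon joins are shown because they are what a spliced read from these transcripts crosses. Lower case gives the last 15 bases before the removed intron and capitals the first 15 after it.
Aldh1a1: caaatcaccgcactgCTTCAGGACCCCAGC
Nrbp2: tcaagatcggctccgTGTGGTACCGCATCT
Ndufb1-ps: gtcaccaggctgaagCAGTCAAGATGACCT
Rbfox1: acagaggacagaaagGTTTTGAGGCAACAG
Snhg14: aaagcgagttaaaagATGATACCTACAGTG
Tmem147os: agtcaggaacgcgagGACTTGAGAACGTGG
Tprkb: ctcctgctacatatgGTAGCAAGGACTAAA

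Each junction name carries a flag C of 0 or 1 that the sources used here do not define. It was 1 in 99.7% of annotated rows and in 25.7% of unannotated rows of the whole table. The fully unannotated junctions split almost evenly, with 5116 at C = 1 (47.2%) and 5715 at C = 0. By contrast, 95.9% of the 14214 junctions with 1 annotated end and 99.8% of the 4568 that pair 2 annotated ends in an unannotated way had C = 1. The C = 0 junctions held 64.4% of the reads over fully unannotated junctions, and all fully unannotated junctions together held 1.55% of the junction reads past the read minimum. The C classes are described separately because they differed in most properties.

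Position relative to genes differed between the C classes. Of all fully unannotated junctions, 4828 (44.6%, 95% Wilson interval 43.6 to 45.5) lay inside an Ensembl 65 gene on the same strand. A further 610 (5.63%, 5.21 to 6.08) lay inside a gene of the opposite strand only, 2850 (26.3%, 25.5 to 27.2) overlapped no gene on either strand, and 2543 (23.5%) crossed a gene border or joined genes. With C = 1, 45.7% overlapped no gene and 22.9% lay inside a gene on the same strand. With C = 0 the order was turned, with 64.0% inside a gene on the same strand and 8.98% overlapping none. Junctions with 1 annotated end were inside a gene on the same strand in 92.3% of cases, which their annotated end largely fixes. These intervals cover counting error only, and junctions of 1 transcript are not independent.

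**Figure D1:**
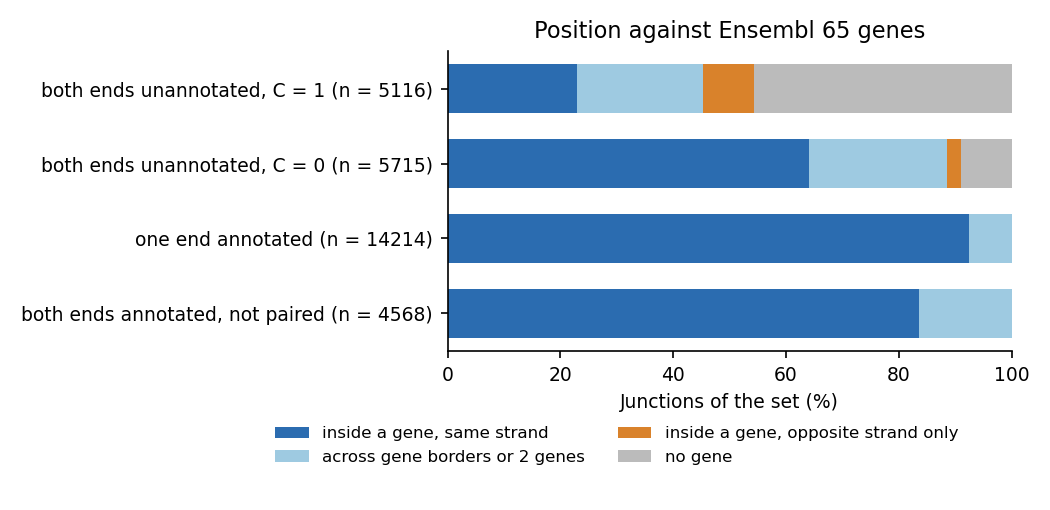
Share of junctions (%) by position against Ensembl 65 genes, for fully unannotated junctions with C = 1 and C = 0 and for the junctions that have 1 or both ends annotated. The part that overlaps no gene is 45.7% with C = 1 and 8.98% with C = 0.

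Among those that crossed borders, 1171 had 1 end in a gene of the same strand, 785 spanned a whole gene of that strand and 204 joined different genes. The other 383 overlapped genes of the opposite strand only, without lying inside one. The 3 C = 0 junctions over 100 kb with the most reads fell in these classes. The first 2 named next overlapped genes of the opposite strand only. One of 261632 bases on chromosome 4 (chr4:121870932-122132563) had 5715 and 4232 reads, one of 142718 bases over Twist1 and Ferd3l (chr12:34505011-34647728) had 2413 and 2447, and one of 203441 bases at Smim15 and Ercc8 (chr13:108757668-108961108) had 2294 and 1463. Each junction also has a second count, which the sources used here do not define. It was 2135, 77 and 128 for these 3, in that order. As a share of the reads, its median was 29.7% for C = 0 introns over 100 kb and 80.7% for annotated introns of that length. The strands were used about equally, with 5380 junctions (49.7%) on the plus strand. Only 1 of the 10831 matched an annotated intron of the opposite strand. Chromosome 7 held the most, 1210 junctions, which were 9.27% of its junctions past the read minimum. The shares on the other autosomes ran from 4.83% on chromosome 6 to 8.02% on chromosome 12.

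Intron lengths spread more widely than in annotated genes. The median was 1651 bases, against 1379 for the 144381 annotated junctions past the same minimum. It was 1675 with C = 1 and 1635 with C = 0, but the quartiles were at 465 and 7198 bases with C = 1 and at 178 and 52130 with C = 0. Introns over 100 kb made up 19.7% of C = 0 junctions (1124), 5.24% of C = 1 junctions (268) and 0.633% of annotated junctions. Introns under 50 bases numbered 335 with C = 0, 19 with C = 1 and 1 among annotated junctions.

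**Figure D2:**
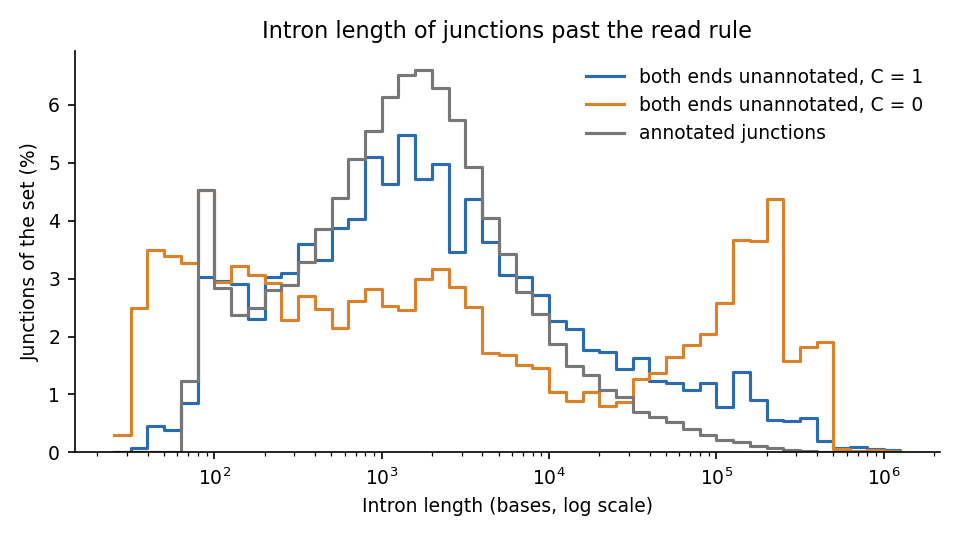
Intron length (bases, log scale) against the share of junctions (%) in equal steps of log10 length, for fully unannotated junctions by C and for annotated junctions. The C = 0 line has extra junctions at both ends, below 50 bases and above 100 kb, where annotated introns are rare.

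The shortest introns were 31 bases long, a length that 17 junctions shared, all with C = 0. Only 3 of these are named here. They lay in Camk2b (chr11:5871149-5871179, 4 and 7 reads in replicates 1 and 2), which encodes a calcium-dependent kinase, in Clcn4 (chr7:7251662-7251692, 23 and 24 reads), and opposite Zc3h7a (chr16:11144161-11144191, 6 and 4 reads). The 3 longest were 1223208 and 1137652 bases on chromosome 12 (chr12:17774106-18997313 and chr12:17774106-18911757), each with 4 and 8 reads, and 1053386 bases across the Cyp3a cluster (chr5:145739717-146793102, 39 and 54 reads). Both on chromosome 12 share their start, and whether the same reads were counted for both was not tested. The longest annotated intron past the minimum had 496721 bases, and 26 fully unannotated junctions exceeded it. The authors' irreproducibility value, which is 0 for the most repeatable junctions, was above 0.1 for 42.3% of C = 0 introns over 100 kb and for 5.22% of C = 1 introns of that length.

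Replicates 1 and 2 were compared with reads scaled to the annotated total. They were at least 2-fold apart for 2549 fully unannotated junctions (23.5%, 22.7 to 24.3), against a background of 8.43% over all 173994 junctions past the read minimum. The median was 21 reads per fully unannotated junction and 182 per annotated junction. At 10 to 19 reads the shares were 37.2% and 33.4%, and at 50 to 199 reads they were 5.99% and 2.09%. At 200 reads or more, 15 of 981 fully unannotated junctions (1.53%) were 2-fold apart, of which 13 had C = 0, against 32 of 68771 annotated junctions (0.0465%). Among C = 0 junctions that were 2-fold apart, 882 were higher in replicate 1 and 540 in replicate 2, whereas with C = 1 the numbers were 520 and 607.

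**Figure D3:**
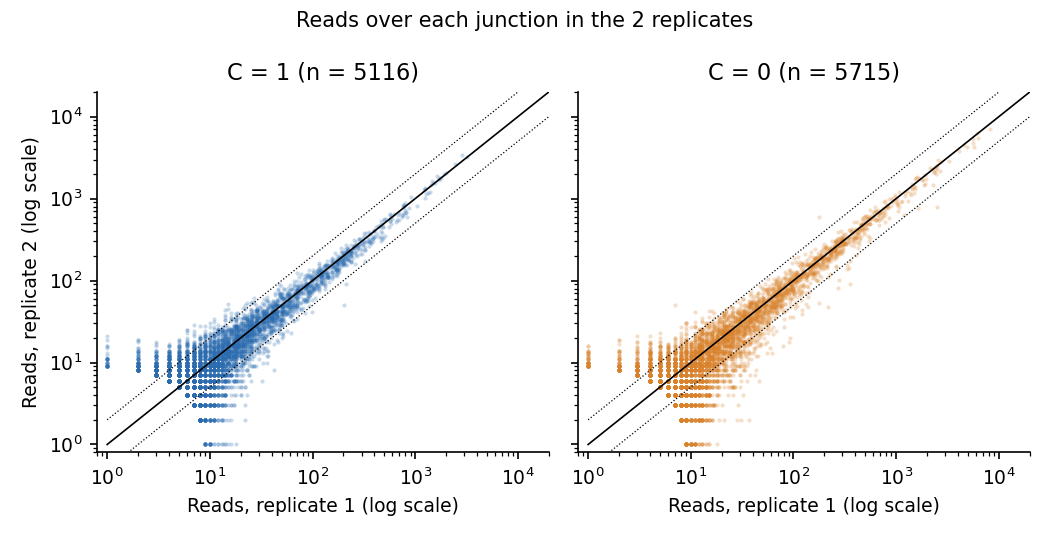
Reads over each fully unannotated junction in replicate 1 (x, log scale) and replicate 2 (y, log scale), unscaled, by C. The solid line marks equal reads and the dotted lines a 2-fold difference; points spread widely near 10 reads and narrow above 200.

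The threshold cuts a continuous range. At exactly 10 reads there were 907 junctions, and at 9 reads 1214 further ones met every other condition. The first 3 inside had 7 and 3 reads (chr1:14765690-14766603), 5 and 5 reads (chr1:21199065-21261495) and 4 and 6 reads (chr1:24620383-24672882) in replicates 1 and 2. The first 3 outside had 3 and 6 (chr1:3053151-3064935), 2 and 7 (chr1:17934681-18024890) and 1 and 8 (chr1:22600614-22603197).

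Many of the set lay beside known introns. Both ends were within 30 bases of the ends of one annotated intron for 1974 fully unannotated junctions (18.2%), and these held 44.9% of the set's reads. Of them 1876 had C = 0, and they lay in 1524 genes. Exactly the annotated length was found for 1015, a shorter intron for 624 and a longer one for 335.

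The 1015 junctions of annotated length carried 418047 reads, 36.6% of the set's reads, with a median of 141 reads each. Of these, 983 were displaced towards lower coordinates and 32 towards higher ones. The annotated intron itself had reads in the table for only 15 of the 1015. On the plus strand a displacement of 2 bases was most frequent (366 junctions), and on the minus strand a displacement of 1 base (254 junctions).

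The exon letters were compared with those of annotated introns for 6 displacements. In 337 of the 340 plus-strand junctions displaced by 2 bases that could be placed in a transcript (99.1%), the upstream exon ended in AG, as in the Pkm, Klc1 and Glul sequences above. Among 136488 annotated introns past the minimum that could be placed, 55.9% followed an exon ending in AG. For a displacement of 3 bases, the exon ended in CAG in 80 of 88 (90.9%), against 23.9% of all. For 1 base on the plus strand the exon ended in G in 57 of 67 (85.1%), against 81.3% of all. On the minus strand the downstream exon began with G in 217 of 233 junctions displaced by 1 base (93.1%), as in Slc25a3, against 49.4% of all. For 2 bases on the minus strand it began with GT in 7 of 59 (11.9%), against 24564 of the 136488, and for 4 bases in 8 of 42. For 1 base on the plus strand and for 2 and 4 bases on the minus strand, the shares were thus near or below those of all introns. These letters were read only on the exon side of each intron.

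The reads of single junctions were close between replicates. The Pkm junction (chr9:59519531-59519725) had 6179 and 6397 reads and the Slc25a3 junction (chr10:90586451-90586659) 5658 and 5268. The Klc1 junction (chr12:113015247-113016228) had 4597 and 4552 reads and the Glul junction (chr1:155751827-155753476) 4079 and 3781. In each of these 4 cases the annotated intron had no reads in the table. Sncb, which encodes beta-synuclein, had the highest such junction with C = 1 (chr13:54861315-54863999), displaced by 4 bases, with 2850 and 3387 reads.

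**Figure D4:**
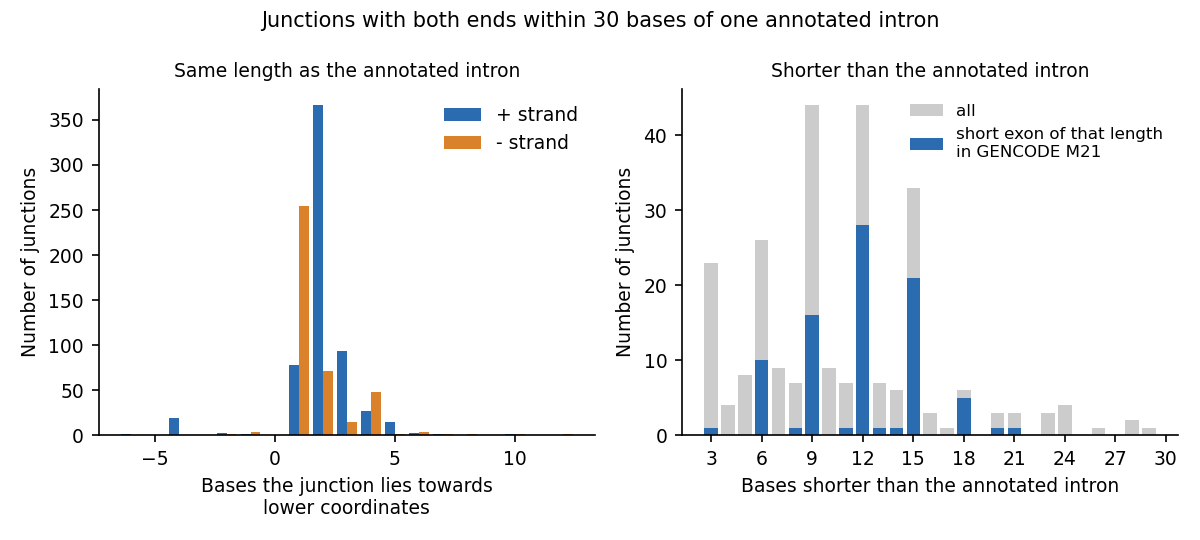
Left, number of junctions of annotated length by the bases they lie towards lower coordinates, on the plus and minus strands. Right, number of junctions by how many bases shorter than the annotated intron they are, with those matched to a short exon of GENCODE M21 in blue; the peaks at 2 bases (366, plus strand) and 1 base (254, minus strand), and at 9, 12 and 15 bases, stand out.

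Shorter introns clustered at whole codons. Of 254 junctions that were 3 to 30 bases shorter than the annotated intron, 183 were shorter by a multiple of 3. For 87 of the 254, GENCODE M21 lists in the same gene an exon of just that length between introns that, together with the exon, add up to the length of the annotated intron. These 87 junctions lay in 84 introns of 78 genes, all protein-coding, all had C = 0, and 82 of them (94.3%) involved an exon whose length is a multiple of 3. The exons had 3 to 21 bases, most often 12 (28 junctions), 15 (21) and 9 (16). In the other 167 junctions, 101 (60.5%) were shorter by a multiple of 3.

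The exon was already known in most of these cases. For 77 of the 87, the Ensembl 65 exon table on mm9 holds an exon of that length inside the same intron. Both junctions flanking that exon passed the read minimum for 31 of the 87, and flanking junctions with fewer reads were not looked up. Where an intron holds several exons of that length, not all were looked up. The 87 junctions held 39211 reads, with a median of 136, and outnumbered the annotated exon-skipping intron in 49 cases. The median share of reads was 61.3% for the short intron against the annotated one.

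The genes described next were chosen after their values were seen. Psap, the precursor of the lysosomal saposins, led with an intron 9 bases shorter than annotated (chr10:59758755-59761840), which had 6258 and 5456 reads, against 7380 over the annotated intron in both replicates. A second Psap junction was 6 bases shorter (chr10:59758752-59761840), with 1811 and 1700 reads, and had no match. Dnm1, the neuronal dynamin that cuts endocytic vesicles from the membrane, had 3238 and 2844 reads over an intron 12 bases shorter (chr2:32176145-32178936), and the annotated intron had 4. Snap91, the clathrin assembly protein AP180, had 1033 and 703 reads at 6 bases (chr9:86704385-86710259) against 31 over the annotated intron.

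Further matched junctions followed the same layout. Sh3glb2, an endophilin, had 685 and 668 reads at 12 bases (chr2:30204148-30205805) against 160 over the annotated intron. Immt, a scaffold of mitochondrial cristae, had 493 and 512 at 15 bases (chr6:71813268-71818561) against 31. Unc13a, which primes synaptic vesicles, had 376 and 294 at 6 bases (chr8:74179105-74179556) against 3. Cadps2, which acts in dense-core vesicle release, had 291 and 236 at 9 bases (chr6:23294366-23305816) against 7. In these 4 genes the shorter junction had more reads than the annotated intron in the table. In Unc13a and Cadps2 neither junction that flanks the short exon itself passed the read minimum, and fewer reads were not looked up. Cadps2 has 2 exons of that length in the intron, of which 1 was looked up. Whether the shorter junctions come from transcripts with the exon was not tested. The annotated intron was favoured in Vps29, part of the retromer, with 48 and 37 reads at 12 bases (chr5:122804495-122810018) against 1364.

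Introns off by a single base formed a weaker group. They were 1 base shorter in 350 cases and 1 base longer in 149, with medians of 19.5 and 13 reads. Where the annotated intron had reads, their reads had a median of 4.68% of its reads when shorter and of 0.0793% when longer.

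Fully unannotated junctions with C = 1 often formed chains. Of all 5116, which include 98 beside an annotated intron, 2681 (52.4%) lay within 500 bases of another fully unannotated junction of the same strand, as if an exon of up to that length joined them, and 2070 (40.5%) shared an end with another. Over all 5715 with C = 0, of which 1876 lay beside an annotated intron, the shares were 23.6% and 21.5%. The intron was also present in the authors' Cufflinks assembly, with both ends exact, for 30.1% of C = 1, 16.2% of C = 0 and 72.7% of annotated junctions. Both ends touched an assembled exon or a contig of read coverage for 91.3% of the set, against 98.2% of all junctions past the minimum and 99.2% of annotated ones. Assembly and contigs come from the same reads, so they describe the files rather than add evidence.

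GENCODE M21, a later annotation, lists part of these chains. A chain was matched when chromosome, strand, both intron lengths and the exon length between them were equal to those of an M21 transcript. Coordinates played no part in the matching. Afterwards the distance between the mm9 and mm10 intron starts was taken for each matched gene. It had a single value in 523 genes and several values in 11. Both junctions of a matched chain give the same distance by construction. In a gene with only 1 matched chain, a single value was therefore fixed in advance, and such genes were not counted. Of 3717 C = 1 junctions linked to any junction past the minimum, 1245 matched (33.5%), which is 24.3% of all with C = 1 and 40.9% of their reads. Of the 5715 with C = 0, 25 matched (0.437%). The matched junctions numbered 1270 in 534 genes, of which 360 were protein-coding, 71 lincRNA and 30 antisense genes, and 186 of the genes were absent from the mm9 gene table. Among the 1270, 800 (63.0%) overlapped no Ensembl 65 gene.

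Matched junctions had a median of 41 reads and the C = 1 junctions without a match 19. The replicates were at least 2-fold apart for 13.8% and 24.6% of them. A match needs a second junction past the minimum within 500 bases, so the read numbers of the matched are partly set by the matching.

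In several protein-coding genes the matched junctions lay mostly outside the Ensembl 65 gene. Aldh1a1, which makes retinoic acid from retinaldehyde, had 7 matched junctions with 4522 and 5002 reads, of which 5 overlapped no gene. The highest removed 59574 bases (chr19:20568015-20627588), with 1635 and 1864 reads. Rbfox1, a neuronal splicing regulator, had 4 with 1390 and 1232 reads, and the highest removed 321340 bases (chr16:6487960-6809299), with 797 and 730 reads. Of its 2 matched M21 transcripts, 1 had a level in the mm10 files, at 49.9 and 51.1 TPM. Srcap, a chromatin remodeller, had 17 matched junctions with 2442 and 2313 reads, of which 16 overlapped no Ensembl 65 gene.

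Nrbp2, a pseudokinase gene, had 6 matched junctions with 5731 and 5354 reads. The intron of 126 bases whose exon join is shown above (chr15:75920356-75920481) had 1381 and 1220 reads. Ndufb1-ps, annotated in M21 as a noncoding RNA of a bidirectional promoter, had 3 matched junctions with 3243 and 3259 reads, and the highest removed 6022 bases (chr12:103207848-103213869), with 1556 and 1534 reads. Elob, a subunit of the elongin complex, had an intron of 104 bases with 1 end in its Ensembl 65 gene (chr17:23965946-23966049), with 1691 and 1786 reads. In each of these junctions the reads of the replicates differed by less than 2-fold.

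Some junctions without a gene came in pairs of equal lengths. Their sequences were not compared, and their placement is uncertain if they are copies. On chromosome 17, introns of 241 and 726 bases occurred on the plus strand (chr17:6642673-6642913 with 1771 and 1808 reads, chr17:6642981-6643706 with 1909 and 1982) and again on the minus strand (chr17:6818538-6818778 with 3172 and 3198, chr17:6817745-6818470 with 2001 and 2079). Among the others with the highest reads and no gene was a C = 0 intron of 1529 bases (chr17:39983466-39984994, 2578 and 2963 reads). An intron of 81 bases followed (chr7:31711774-31711854, 1688 and 1693 reads).

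Of the 610 junctions that lay inside a gene of the opposite strand only, 64 matched an M21 transcript. Over Gapdhs, the sperm glyceraldehyde-3-phosphate dehydrogenase, the plus strand held an intron of 2559 bases (chr7:31514874-31517432, 397 and 410 reads) and one of 1942 bases (chr7:31517781-31519722, 320 and 306 reads). Both matched Tmem147os, an antisense gene of M21 with 5 matched junctions and 977 and 974 reads. Over Nat8f1, an intron of 620 bases (chr6:85864523-85865142) had 357 and 293 reads and matched Tprkb, which encodes a subunit of a tRNA-modifying complex. Opposite Epo, the erythropoietin gene, an intron of 870 bases (chr5:137958840-137959709) had 209 and 216 reads. The intron of 2001 bases opposite ENSMUSG00000091795 (chr17:6339718-6341718) had 196 and 221. All of these 5 had C = 1.

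With C = 0, the highest antisense junction lay opposite Zc3h7a and removed 63 bases (chr16:11144155-11144217), with 5630 and 4738 reads. Those opposite Slc9a9 (chr9:94770587-94773545, 562 and 328 reads) and Ccdc85c (chr12:109457425-109481093, 306 and 342 reads) followed. Reads were higher in replicate 1 opposite Zc3h7a and Slc9a9 and in replicate 2 opposite Ccdc85c.

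Many lay on the minus strand of chromosome 7, in the stretch from the start of Ube3a (chr7:66484122-66562097) to the end of the gene model ENSMUSG00000000948 (chr7:67127388-67285105). The name table used here calls that model Gm38393, and whether this symbol fits the older mm9 model is uncertain. Ube3a encodes a ubiquitin ligase that neurons express from the maternal allele, and the region is known for a long antisense RNA, Snhg14, that hosts many small nucleolar RNAs. Here 283 fully unannotated junctions had 19740 and 16890 reads, and 275 of them had C = 1. Of the 283, 248 shared an end with another, and some of these had identical reads. For example, several introns that end 532.977 kb from the start of Ube3a had 147 reads each. Whether the same reads were counted at several copies was not tested, so the junction number and read sums may be inflated. Of the 283, 262 lay between both genes, 3 inside Ube3a and 16 in the last gene model. The 283 were 87.6% of the 323 junctions past the minimum on that strand of the stretch, where 11 were annotated, and the plus strand had no fully unannotated junction. They made up 23.4% of the fully unannotated junctions of chromosome 7. Without them, that chromosome's share fell from 9.27% to 7.26%, within the range of the other autosomes.

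The lengths there recurred. The median was 4116 bases, with a range of 81 to 184724. Introns of 370 to 400 bases numbered 33, of which 16 were exactly 380 bases, and 26 had 1300 to 1350 bases. All 33 of the first kind held a whole Ensembl 65 gene of at most 150 bases, and none of the 26 did. The stretch has 167 such short genes on this strand, and 139 of them lay inside at least 1 of the junctions. By identifier, 9 of the 167 are small nucleolar RNA genes in M21, and the other 158 have no symbol in the name table used here.

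Snhg14 accounted for 46 matched junctions with 7705 and 6599 reads. The highest removed 1596 bases (chr7:66923362-66924957), with 759 and 630 reads. The 9 matched Snhg14 transcripts summed to 370 and 297 TPM. Because the same lengths recur, a match names the transcript family and not the copy. Over Ube3a itself 3 antisense junctions were found, of 1337 bases (chr7:66530635-66531971, 174 and 146 reads), 7257 bases (chr7:66532139-66539395, 118 and 144 reads) and 54376 bases (chr7:66485020-66539395, 17 and 24 reads). Across the stretch, the replicates were at least 2-fold apart for 30 of the 283 (10.6%), near the 8.43% of all junctions past the minimum.

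**Figure D5:**
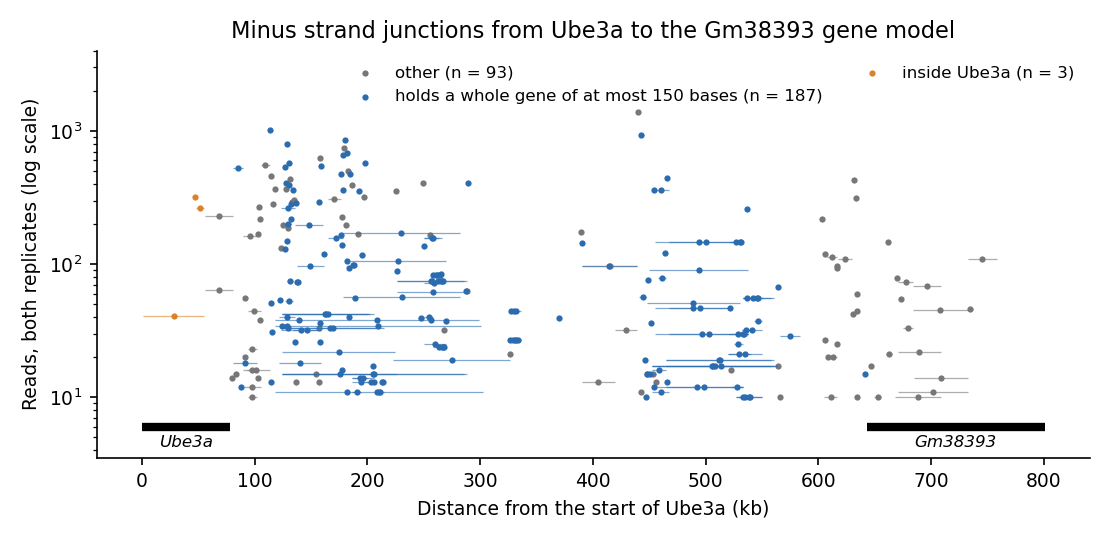
Reads over both replicates (y, log scale) of each fully unannotated junction on the minus strand by its midpoint in kb from the start of Ube3a (x); thin lines span each intron and black bars mark Ube3a and the gene model named Gm38393 in the name table. Of 283 junctions, 187 hold at least 1 whole gene of at most 150 bases (blue) and 3 lie inside Ube3a (orange).

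Inside genes on the same strand, junctions were spread over 2846 genes, 1979 of which held only 1. These genes had a median of 3.90 RPKM in the authors' mm9 gene table, against 1.73 RPKM for the 14087 genes with an annotated junction past the minimum. RPKM is a read density corrected for gene length and library size. The host genes ran from 0 to 1166 RPKM.

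A few genes held many. The most were in 2610005L07Rik with 61 junctions, followed by Peak1 with 40 and the noncoding Snhg11 with 25. Gm20388 and Tusc3 had 24 each, Sos2 23, Tatdn3 22, Mbp 21 and Miga1 20. All 40 Peak1 junctions had C = 0 and removed 31 to 250 bases. The highest of them, and of the whole set, removed 33 bases (chr9:56071575-56071607), with 8186 and 7141 reads. Those with the most reads overlapped one another, such as chr9:56071575-56071611 (1146 and 936 reads) and chr9:56071507-56071694 (421 and 378 reads). The gene itself had 1.80 and 1.74 RPKM. Whether these junctions are separate introns was not tested. Peak1 encodes a pseudokinase of the cytoskeleton. All 22 junctions of Tatdn3 also had C = 0.

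Sos2, a Ras exchange factor, had 18 junctions with C = 1 among its 23, of 42 to 198 bases. In Snhg11, 11 of 25 had C = 1, and the highest removed 2109 bases (chr2:158208900-158211008), with 2456 and 2676 reads. In Dnm1 an intron of 726 bases with C = 0 lay beside no annotated intron and was among the highest inside genes (chr2:32170589-32171314, 4946 and 4316 reads).

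Of the 14087 genes with an annotated junction past the minimum, 19.0% held a fully unannotated junction, and genes that held one had the higher median level given above. The genes of the lists below are cell type markers or were picked for long introns, so their counts are a description. Of 15 granule neuron genes, 9 held 15 junctions, and the highest was in the transcription factor Pax6 (chr2:105520044-105520400, 265 and 212 reads), with the length of an annotated intron. Of 13 Purkinje genes, 6 held 9, led by Itpr1, the calcium release channel (chr6:108433000-108435234, 2670 and 2193 reads), also of annotated length. Of 10 oligodendrocyte genes, 6 held 32, of which 21 were in Mbp, myelin basic protein, 13 of them beside an annotated intron. The highest of that list was in Mag (chr7:31696516-31696599, 61 and 61 reads). Of 9 astrocyte and Bergmann glia genes, 5 held 17, led by the Glul junction described above. Of 15 genes picked for long introns, mostly of channels and adhesion proteins but also Rbfox1 and the adaptor Dab1, 10 held 34, led by Cacna1a, the P/Q calcium channel (chr8:86939842-86985387, 852 and 574 reads), again of annotated length.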

How the data were processed

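Both libraries of the 1 group were used. Per the file headers, the deposited junction table (mm9) gives whole read counts for both replicates together and, in each name, for replicates 1 and 2. These numbers name no library. It also gives the authors' irreproducibility value, a fraction from 0 to 1, and a second count per junction that the sources used here do not define. The contig table deposited by the authors gives a coverage signal, of which only positions were used. The deposited exon, gene and assembled (Cufflinks) tables give exon positions and RPKM per the file headers. The mm10 files give expected counts and TPM per gene and transcript, as deposited. No source used here gives the aligner or junction caller.

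Introns were the gaps between exons of each Ensembl 65 transcript, and all rows marked A = 1 (182310) equalled one. Each of 37310 genes is listed on 2 lines of the gene table and was used once; 32620 (87.4%) had a symbol. Positions are 1-based. No test was made, since 1 group allows none; shares carry 95% Wilson intervals for counting error. The functions were checked on simulated tables. Letters and later transcripts came from GENCODE M21 by identifier or lengths, never by coordinates. Python 3.11.15, pandas 2.3.3 and numpy 2.4.6 were used.

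The members and lists were chosen with earlier results of these data known. Named junctions are the 8 with most reads inside a gene, opposite a gene and without a gene, leaving out those that share an end with one already named. The 3 longest, 3 of the 17 that tie for shortest and 3 on each side of the read minimum are also named. Named genes are the 10 with most members, and lists are counted with their highest junction. Genes named for short exons, displaced introns, M21 matches, gene borders and chromosome 7 were chosen after their values were seen, as was the split by C. Junctions of chromosomes X, Y and M stay out by rule, and a few genes the rule names are not reported here. Alternatives changed the read minimum, end matching, intron lengths, replicates, overlap, weighting and scaling.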

Additional observations from a re-analysis of the deposited data

How the results depend on the processing

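The number of fully unannotated junctions (10831), their shares inside a gene on the same strand (44.6%), opposite a gene (5.63%) and without a gene (26.3%), their median length (1651 bases) and the share 2-fold apart (23.5%) were recomputed under each alternative. Values outside the interval of the original, or counts over 1.5 times away, follow in that order of results. A minimum of 5 reads gave 21984 junctions, 46.4% on the same strand, 23.8% without a gene, 1483 bases and 35.0% 2-fold apart. A minimum of 20 gave 5841 junctions, 46.0%, 4.91% opposite a gene and 11.9% 2-fold apart. At least 3 reads in each replicate gave 19.4% 2-fold apart. An irreproducibility value of at most 0.1 gave 47.4% on the same strand, 27.3% without a gene, 1336 bases and 21.7% 2-fold apart. Counting ends within 10 bases as annotated gave 29.7% on the same strand, 7.30% opposite, 34.1% without a gene and 25.6% 2-fold apart. Counting assembled introns as annotated gave 46.4%, 6.23%, 20.5%, 1529 bases and 26.3%. Introns of 50 to 100000 bases alone gave 48.9%, 6.37%, 29.6%, 1233 bases and 22.1%. Any overlap with a gene gave 64.5% on the same strand and 9.17% opposite. Weighting by reads gave 59.7%, 3.35%, 23.2% and 1282 bases. Unscaled reads gave 25.3% 2-fold apart. Leaving out each replicate, with 10 reads required in the other, gave 6081 to 6409 junctions, 45.4% to 47.7% on the same strand, 5.05% to 5.12% opposite, 26.4% to 26.8% without a gene and 1495 to 1713 bases. Chosen after seeing the data, C = 1 alone gave 5116 junctions, 22.9%, 9.13%, 45.7% and 22.0% 2-fold apart, and C = 0 alone 5715 junctions, 64.0%, 2.50%, 8.98% and 24.9%. Matching ends on either strand moved none of the 6. Wider limits, of 5 bases to assembled exons and 50 to contigs, moved the share with both ends supported from 91.3% to 91.9%. The order of the gene classes turned under 2 alternatives, ends within 10 bases and C = 1 alone, where junctions without a gene outnumbered those inside one on the same strand. At 10 to 19 reads, 33.4% of annotated and 37.2% of fully unannotated junctions were 2-fold apart, so single junctions at that depth give no order between replicates.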

Other observations

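The same rule applied off the autosomes gave 627 junctions on chromosome X, 1 on chromosome Y and 38 on the mitochondrial chromosome. Single ends could be shared by many fully unannotated junctions: of 19285 different ends, 1633 were used by at least 2 of them and 6 by at least 10. The most used end lay outside any gene on the plus strand of chromosome 1, at position 138143975. It was joined to 16 partners, all with C = 0, at a median distance of 117518 bases, with 277 reads in all. An end outside any gene on chromosome 17, at position 39983914, had 11 partners, all with C = 0. An end in Phf10, a chromatin remodelling subunit, also had 11, of which 3 had C = 0. Ends in different genes were joined by 204 junctions, 169 of them with C = 0. With C = 1 these included neighbouring relatives such as Tuba1b and Tuba1a (chr15:98762313-98780764, 27 and 53 reads), both alpha-tubulins, and Ly6a and Ly6c1 (chr15:74828048-74879183, 34 and 42 reads). The sequences of these genes were not compared, and the cause of such joins was not tested.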
